A study of Mus musculus with 6 samples.

Results

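The Hedgehog pathway was described in MIN6 cells by 9 genes, namely the ligands Shh, Ihh and Dhh, the receptor Ptch1, the signal transducer Smo, the transcription factors Gli1, Gli2 and Gli3, and the ligand-binding inhibitor Hhip. All 9 were found by gene symbol among the 22298 genes of the deposited table. The family was chosen by its measured counts in epinephrine and control libraries, with that comparison already in view, so its levels and differences are given as a description and not as tests. MIN6 is a mouse insulinoma line that secretes insulin. RNA was sequenced from 3 control samples and from 3 samples with chronic epinephrine, a catecholamine that acts on beta cells mainly through the α2A-adrenergic receptor. In the study's scheme, epinephrine was given at 100 nM for 3 days and then withdrawn for 2 days, and the day of RNA collection was not given in the sources used here. All samples came from the same line, grown in RPMI medium with serum and β-mercaptoethanol. The study's methods call the replicates of a group independent samples, and the labels do not say how they were separated, so p-values measure the spread between these samples.

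Hedgehog ligands are lipid-modified secreted proteins. In the absence of ligand, Ptch1 holds Smo inactive, and binding of ligand to Ptch1 frees Smo to enter the primary cilium and to turn GLI proteins from repressors into activators of transcription. Ptch1, Gli1 and Hhip are themselves induced by GLI activity in many tissues, which makes them common readouts of the pathway. In the embryo, Shh is kept out of the pancreatic bud while the surrounding gut epithelium makes it, and its absence there permits pancreas formation.

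After chronic epinephrine, Shh was about 3-fold higher in these libraries, whereas Ptch1 was abundant at similar levels in both groups, Hhip was barely covered, and Smo, Gli1, Gli2, Gli3, Ihh and Dhh were at a handful of reads or none. The libraries held 15017065 to 18127171 expected counts. A count of 0 allows up to 3 counts in a library, or 0.165 to 0.200 CPM (counts scaled to a common library total), counting error only. Control 1 stood apart from the other libraries, and leaving it out raised the number of genes that passed the test from 335 to 2798. Of 12 markers of beta cells, none lay under 1 CPM in all libraries, and 3 were higher after epinephrine. Ins1, Slc2a2 and Ucn3 passed the test as lower, 3 of 12, where 2.63% of all genes tested passed in either direction. The 12 markers summed to 51349 to 68585 CPM in the controls and to 61835 to 63914 CPM after epinephrine, so their sums overlapped. The 8 leukocyte and 8 endothelial markers summed to 1.09 to 4.33 CPM and 6.28 to 9.51 CPM over the libraries, and the 9 exocrine markers in the table to at most 1.06 CPM. Cd68 among the leukocyte markers passed the test as higher. In RNA from whole cultures, fewer cells that express a gene and less RNA per cell cannot be told apart.

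Among the ligands, Shh (ENSMUSG00000002633) encodes Sonic hedgehog and lies on the minus strand of chromosome 5 from 28456815 to 28467256 in GRCm38. It had 48, 45 and 47 expected counts in controls 1, 2 and 3, and 159, 138 and 160 after chronic epinephrine 1, 2 and 3. In CPM normalized by edgeR's TMM method, these were 3.11, 2.57 and 2.94 in the control group against 9.43, 7.73 and 10.6 after epinephrine. Every epinephrine library was above every control library, and the lowest of them exceeded the highest control more than the controls differed among themselves. The group means were 2.87 ± 0.274 and 9.25 ± 1.43 CPM (SD, n = 3), a change of 1.68 on the log2 scale (SE 0.17), or 3.21-fold. This was number 30 in the order of log2 fold changes from the top among the 12747 genes tested. Leaving out any library kept the log2 fold change between 1.58 and 1.80. Per length, in fragments per kilobase scaled to library size (FPKM), Shh lay at 1.12, 0.91 and 1.03 in the controls and at 3.29, 2.67 and 3.68 after epinephrine, and 16.3% of the genes tested had a lower mean FPKM over the 6 libraries. Exons of 2 non-coding annotations on the other strand, 9530036O11Rik and Gm26894, overlap Shh, and 23.6% of its 2798 windows of 50 bases were shared with them. Whether the counting used strand was not given in the sources used here, and neither annotation was analysed here.

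**Figure D1:**
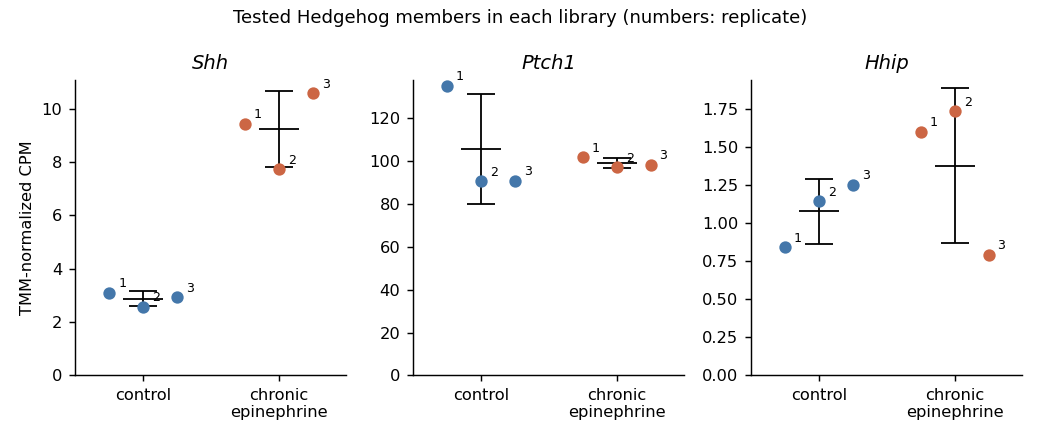
TMM-normalized CPM (vertical axes, from 0) of Shh, Ptch1 and Hhip in each library, with control in blue, chronic epinephrine in orange, replicate numbers beside the points, and group mean and SD as black bars (n = 3). The epinephrine libraries of Shh sit at 7.73 to 10.6 CPM above controls at 2.57 to 3.11 CPM, control 1 is the highest library of Ptch1 at 135 CPM, and the groups of Hhip overlap.

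Some markers of other cell types differed between the same groups as Shh. The 8 markers of other islet endocrine cells summed to 1014 to 1547 CPM in the controls and to 1957 to 2155 CPM after epinephrine, and the groups did not overlap. Gcg, which encodes glucagon, was the member of that list that passed the test, while Sst, Ppy, Ghrl and Hhex were under 1 CPM in all libraries. The 8 duct markers summed to 216 to 254 CPM in the controls and to 296 to 301 CPM after epinephrine. Of the 4 duct markers tested 2 were higher and 2 lower, Spp1 passed the test as higher, and the defining duct genes Krt19, Sox9, Cftr and Onecut1 were under 1 CPM in all libraries. The part of these markers in the values of Shh was not tested.

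The remaining ligands were close to the limit of detection. Ihh (Indian hedgehog, chromosome 1 from 74945315 to 74951672) had 2, 1 and 3 counts in the controls and 3, 3 and 0 after epinephrine. Dhh (Desert hedgehog, chromosome 15 from 98891152 to 98898540) had 2, 1 and 0 counts in the controls and 1 in each epinephrine library. No library held more than 3 counts of either gene, so a difference between the groups was not detectable at this depth. Pooled over the 6 libraries, Ihh lay at 0.121 CPM (exact Poisson 95% interval 0.0627 to 0.212) and Dhh at 0.0607 CPM (0.0223 to 0.132), intervals that cover counting error only. Exons of Dhh overlap Rhebl1 on the same strand and Gm49442 on the other, and 22.2% of its windows were shared with them.

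Among the receptors, Ptch1 (ENSMUSG00000021466) encodes Patched 1, which binds the ligands and restrains Smo. It lies on the minus strand of chromosome 13 from 63508328 to 63573598. It was covered by 2089, 1588 and 1452 counts in controls 1, 2 and 3 and by 1719, 1733 and 1487 counts after epinephrine. The normalized CPM were 135, 90.8 and 90.9 in the control group and 102, 97.1 and 98.3 after epinephrine. Control 1 was the highest of all libraries and the other controls the lowest, so that the epinephrine libraries fell between them. The means were 106 ± 25.6 and 99.1 ± 2.52 CPM (SD, n = 3), a change of -0.09 on the log2 scale (SE 0.15). Without control 1 the sign turned, and the log2 fold change was 0.13. In control 1 the 15 mesenchymal markers summed to 96.6 CPM, against 67.4 and 70.0 CPM in controls 2 and 3 and 58.6 to 80.2 CPM after epinephrine. Of these markers, Lum, Pdgfra, Pdgfrb, Thy1 and Fbn1 were under 1 CPM in all libraries, and the part of the list in the level of Ptch1 was not tested. The hepatocyte markers in the table, 14 genes, summed to 17.7 CPM in control 1, to 88.5 and 206 CPM in controls 2 and 3, and to 15.4 to 18.6 CPM after epinephrine, and their part in the levels of the members was not tested. Of the windows of Ptch1, 0.262% were shared with other genes.

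Smo (ENSMUSG00000001761) encodes Smoothened, the membrane protein that passes the signal from Ptch1 to the GLI factors, and lies on the plus strand of chromosome 6 from 29735503 to 29761365. Its counts were 4, 0 and 2 in the controls and 0, 6 and 0 after epinephrine. Reads of Smo were thus listed in 3 of the 6 libraries, and 6 counts, or 0.331 CPM of the library total, was the highest value. Each group summed to 6 counts, with 0.124 CPM in the controls and 0.119 CPM after epinephrine, and the pooled level was 0.121 CPM (95% interval 0.0627 to 0.212).

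The GLI factors were at or near 0. Gli1, the activator that is itself a GLI target, had 2, 1 and 0 counts in the controls and 0 in every epinephrine library. Gli2, which acts mainly as an activator, had 0, 1 and 2 counts in the controls and 1, 0 and 1 after epinephrine. Gli3, which acts mainly as a repressor, had 4, 2 and 0 counts in the controls and 1, 2 and 1 after epinephrine. Among the 18 values for these factors, 4 counts was the highest, and it stood in control 1. Pooled over all libraries they lay at 0.0303 CPM (95% interval 0.00626 to 0.0887) for Gli1, 0.0506 CPM (0.0164 to 0.118) for Gli2 and 0.101 CPM (0.0485 to 0.186) for Gli3. Gli1 lies on chromosome 10 from 127329882 to 127341974, Gli2 on chromosome 1 from 118834132 to 119053619, and Gli3 on chromosome 13 from 15463235 to 15730026. The group sums were 3 and 0 counts for Gli1, 3 and 2 for Gli2 and 6 and 4 for Gli3, in controls and epinephrine respectively. No fold is given for them, because the mean per library was under 3 counts in both groups. Exons of Gli1 overlap Arhgap9 and Gm47200 on the other strand, and 4.51% of its windows were shared with them.

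**Figure D2:**
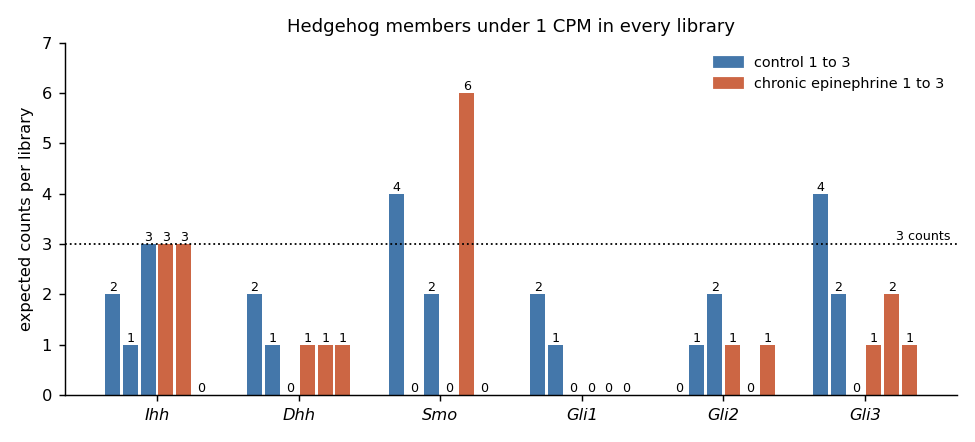
Expected counts (vertical axis, bars from 0) of the 6 members that were under 1 CPM in all libraries, with controls 1 to 3 in blue and chronic epinephrine 1 to 3 in orange from left to right, each count above its bar, and the limit of 3 counts as a dotted line. The bars above the line are those of Smo in control 1 and chronic epinephrine 2 and that of Gli3 in control 1.

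Hhip (ENSMUSG00000064325) encodes Hedgehog-interacting protein, a membrane protein that binds the ligands and keeps them from Ptch1, and lies on the minus strand of chromosome 8 from 79965851 to 80058006. It had 13, 20 and 20 counts in the controls and 27, 31 and 12 after epinephrine. The normalized CPM were 0.842, 1.14 and 1.25 in the control group and 1.60, 1.74 and 0.793 after epinephrine. Chronic epinephrine 3 was the lowest of all libraries and chronic epinephrine 2 the highest, so the groups overlapped. The means were 1.08 ± 0.212 and 1.38 ± 0.510 CPM (SD, n = 3), a change of 0.36 on the log2 scale (SE 0.34). With each library left out it lay between 0.16, without chronic epinephrine 2, and 0.62, without chronic epinephrine 3.

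Smo, Gli1, Gli2, Gli3, Ihh and Dhh, 6 of the 9 members, were under 1 CPM in all libraries. Smo came closest from below with 0.331 CPM of the library total in its highest library, and Hhip lay just above the threshold, with 0.787 CPM in its lowest library and 1.71 CPM in its highest. The filter on low counts kept Shh, Ptch1 and Hhip, each with counts in all 6 libraries. Of these 3, Shh passed an FDR (Benjamini-Hochberg adjusted p over all genes tested) of 0.05, also with at least a 2-fold change. Over all 12747 genes tested, 2.63% passed the FDR, 2.02% passed it as higher after epinephrine, and 0.722% passed both thresholds. The groups of Shh did not overlap, as in 27.3% of the genes tested. The family was chosen with this contrast in view, and nothing is read from these counts.

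**Figure D3:**
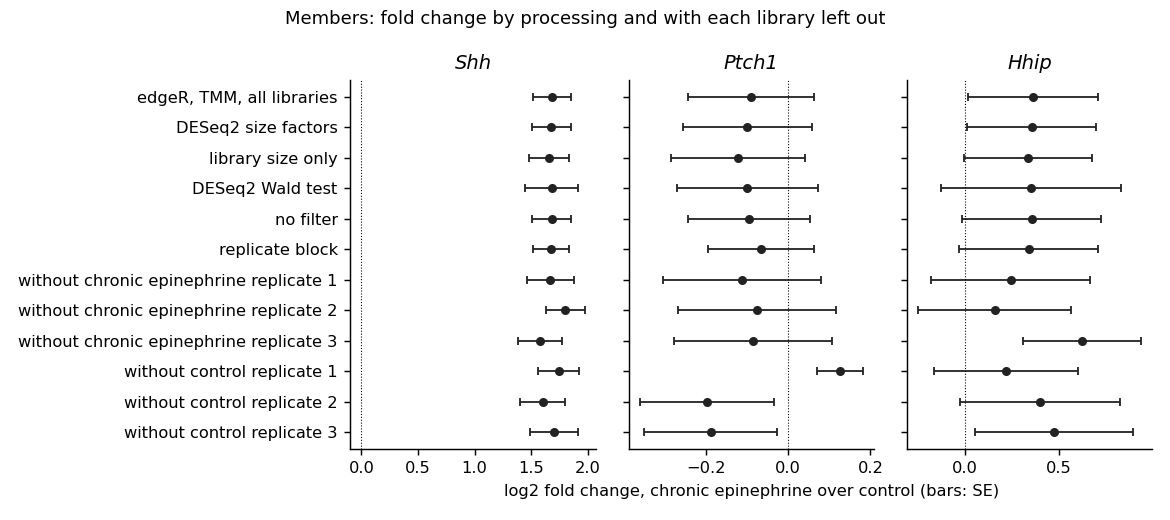
Log2 fold change of chronic epinephrine over control (horizontal axes, bars show the SE) for Shh, Ptch1 and Hhip with all libraries, under each other way of processing, and with each library left out. Shh stays between 1.58 and 1.80, Ptch1 lies below 0 except without control 1, and Hhip moves between 0.16 and 0.62.

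Levels were compared between members per length. The mean FPKM over the 6 libraries was 15.6 ± 2.89 for Ptch1, 2.12 ± 1.25 for Shh and 0.138 ± 0.0407 for Hhip (SD, n = 6). The ranges of these genes did not overlap, with 12.85 to 20.89 FPKM for Ptch1, 0.91 to 3.68 for Shh and 0.09 to 0.19 for Hhip. The order then ran through Ihh at 0.0483, Smo at 0.0317, Gli3 and Gli2 at 0.015, Dhh at 0.0133 and Gli1 at 0.00667 FPKM, and each of these neighbours overlapped the next in range. The lowest library of Hhip lay above the 0.08 FPKM that Ihh reached at most, but equalled the 0.09 FPKM of the highest library of Smo. Of the genes tested, 62.2% had a lower mean FPKM than Ptch1, and 0.329% a lower one than Hhip.

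**Figure D4:**
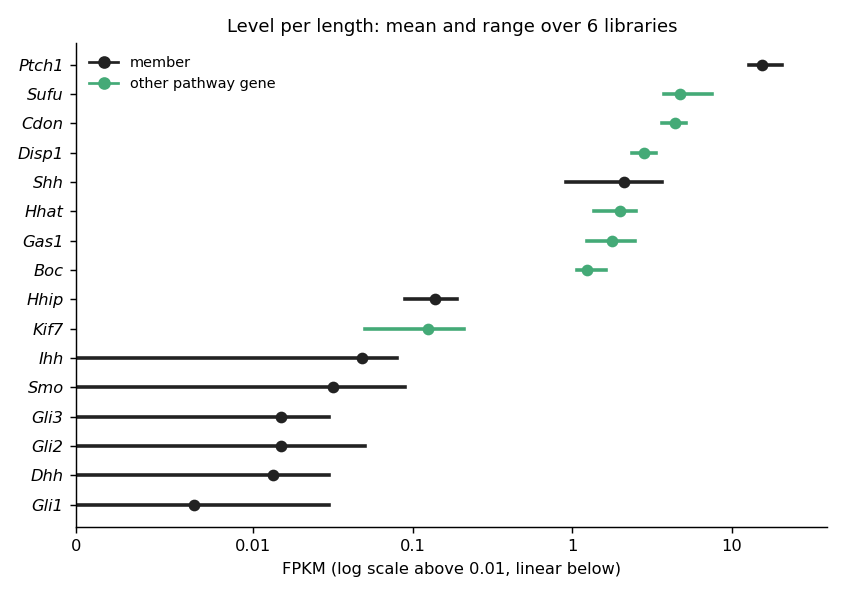
Mean FPKM (points) and range over the 6 libraries (lines) of the 9 members in black and of 7 other pathway genes in green, on a horizontal axis that is logarithmic above 0.01 and linear below. Ptch1 is the highest at 15.6 FPKM, and Ihh, Smo, Gli3, Gli2, Dhh and Gli1 reach down to 0.

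The genes whose pattern over the 6 libraries was closest to that of Ptch1 were Edc4, Fkbp15 and Tnks, with mean absolute differences of 0.012, 0.0149 and 0.0154 in log2 CPM centred per gene. They were highest in control 1 as well, with 64.4 CPM for Edc4, 53.9 CPM for Fkbp15 and 169 CPM for Tnks, and had log2 fold changes of -0.09, -0.08 and -0.08. With 6 libraries and 12747 genes such matches are a description only.

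Promoter sequences from RefSeq (GRCm38.p6) were matched for 7 of the 9 members, and those of Shh and Gli1 were not analysed here. Those of Ptch1, Hhip and Smo are shown because they are the most abundant member, the member next to the threshold and the receptor component near 0. Each run is the 250 bases before the transcription start, 5′ to 3′ on the strand of the gene, with CG dinucleotides in capitals. They lie at chr13:63565736-63565985 on the minus strand, chr8:80058009-80058258 on the minus strand and chr6:29735247-29735496 on the plus strand.
Ptch1: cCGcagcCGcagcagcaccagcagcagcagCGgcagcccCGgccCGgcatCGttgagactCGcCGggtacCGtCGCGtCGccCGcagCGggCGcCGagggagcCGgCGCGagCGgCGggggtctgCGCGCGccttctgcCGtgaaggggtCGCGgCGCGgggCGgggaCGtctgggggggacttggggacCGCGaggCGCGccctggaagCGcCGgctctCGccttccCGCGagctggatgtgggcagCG
Hhip: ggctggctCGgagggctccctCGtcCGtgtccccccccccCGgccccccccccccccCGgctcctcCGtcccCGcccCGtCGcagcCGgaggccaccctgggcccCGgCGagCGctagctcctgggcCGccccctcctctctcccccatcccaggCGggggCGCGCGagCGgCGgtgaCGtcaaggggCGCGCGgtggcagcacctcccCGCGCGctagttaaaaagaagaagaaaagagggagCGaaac
Smo: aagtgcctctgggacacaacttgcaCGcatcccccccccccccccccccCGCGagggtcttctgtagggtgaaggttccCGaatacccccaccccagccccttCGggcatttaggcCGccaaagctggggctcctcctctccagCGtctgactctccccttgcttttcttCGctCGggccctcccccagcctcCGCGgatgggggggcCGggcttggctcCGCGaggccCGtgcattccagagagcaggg

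The Ptch1 window held 41 CG dinucleotides, more than 98.9% of the 32851 promoter windows in the same set, whose median was 6. Gli3 held 34, Hhip 28, Ihh 24, Gli2 22, Smo 15 and Dhh 9. A high CG number stood beside FPKM values from 15.6 for Ptch1 down to 0.015 for Gli3. The letters GACCACCCA, a consensus bound by GLI factors, were searched on both strands in the 300 bases from 250 before to 50 after the start. They were found in 0 of the 7 members' windows and in 0.253% of all promoters. The shorter core CCACCCA, which is contained in that motif, was in 0 of the 7 and in 9.30% of all promoters on either strand. This describes 1 window per gene, and Ptch1 has further starts in GENCODE that these windows do not cover.

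Other genes of the pathway were tested in the fit over all genes, in lists written from general knowledge with earlier results of these data known. Genes that process and release the ligands were listed as 5, of which 3 were tested. None of them passed an FDR of 0.05 by edgeR's quasi-likelihood test or by DESeq2, 1 had an unadjusted p under 0.05, and their median log2 fold change was 0.44, against -0.0023 over all genes tested. Without control 2 that median was 0.16, with 2 higher and 1 lower. Hhat, the acyltransferase that attaches a fatty acid to Hedgehog ligands, had 5.44, 4.74 and 3.94 CPM in the controls and 7.18, 6.4998 and 6.35 CPM after epinephrine. The groups did not overlap, as in 14.3% of all genes in the same direction. Its change was 0.50 on the log2 scale (SE 0.16, FDR 0.155), and without control 1 it was 0.62 with an FDR of 0.00970, where 21.6% of all genes tested passed (FDR over all alternatives 0.00970 to 0.467). Disp1, which releases lipid-modified ligand from the cell, had a change of 0.08 on the log2 scale (SE 0.15, FDR 0.825), and Scube3, a secreted carrier of the ligand, one of 0.44 (SE 0.37, FDR 0.586) at 6 to 13 counts. Disp1 moved to 0.25 without control 1 and to -0.01 without control 2. Scube3 moved to 0.16 without control 2 and to 0.67 without control 3. Per length, Hhat lay at 1.38 to 2.51 FPKM and Disp1 at 2.36 to 3.35 FPKM.

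Co-receptors and ligand-binding proteins were listed as 7, of which 4 were tested, Boc, Cdon and Gas1 among them, and Lrp2, Gpc3 and Gpc5 did not pass the filter with all libraries. Lrp2, a large endocytic receptor that was singled out after its values were seen, had 0.842, 0.686 and 0.563 CPM in the controls and 0.0593, 0.0560 and 0.331 CPM after epinephrine, at 1 to 13 counts. Its groups did not overlap, as in 13.0% of the genes tested in that direction, a share that covers only genes kept by the filter. In the fits that kept Lrp2, its change lay between -1.84 and -3.43 on the log2 scale, with adjusted p values of 0.0846 to 0.385 by edgeR or DESeq2. None of the list passed an FDR of 0.05 with edgeR or DESeq2, and 1 of the 4 had an unadjusted p under 0.05 in edgeR. All 4 had log2 fold changes below 0, with a median of -0.27, and without control 1 this held for 3 of them. Gas1, a membrane-anchored protein that helps the ligand to bind Ptch1, had 7.12, 5.72 and 5.38 CPM in the controls and 4.92, 4.71 and 3.70 CPM after epinephrine. These groups did not overlap, as in 13.0% of all genes in that direction, and the log2 fold change was -0.44 (SE 0.18, FDR 0.250, over all alternatives 0.233 to 0.602). The co-receptors Cdon and Boc had log2 fold changes of -0.19 (SE 0.11, FDR 0.444) and -0.03 (SE 0.18, FDR 0.943). Without control 1 these were -0.07 and 0.15, and the median of the list was -0.09. Boc also turned to 0.02 without chronic epinephrine 2.

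Genes that act between Smo and the GLI factors were listed as 28 symbols, of which 27 were in the table and 26 were tested. Prkar1a, a regulatory subunit of protein kinase A, was the 1 gene that passed, or 3.85% of the list against 2.63% of all genes, which is near the background. It rose from 1092, 1159 and 1135 CPM in the controls to 1653, 1590 and 1670 CPM after epinephrine, a change of 0.54 on the log2 scale (SE 0.08, FDR 0.0108, over all alternatives 1.05e-11 to 0.109). The FDR was 0.107, 0.0838 and 0.109 without chronic epinephrine 1, 2 and 3, 0.0533 without control 2 and 0.0543 with replicate number as a block, so the call was lost there. Prkacb, a catalytic subunit gene of the same kinase that was singled out after its values were seen, had a change of -0.34 on the log2 scale (SE 0.09, FDR 0.0914) and passed with DESeq2, where the list had 2 calls among 27 genes, or 7.41%, and all genes 5.07%. Without control 1, Btrc, Gpr161, Prkacb and Prkar1a passed, 4 of 27 or 14.8%, below the 21.6% of all genes in that fit. Of the 26 genes, 7 were higher and 19 lower after epinephrine, with a median of -0.11. Without control 2 this median was -0.18, with 6 higher and 20 lower. Without control 1 the filter also kept Kif7, and of 27 genes 11 were higher and 16 lower, with a median of -0.013. Sufu, which holds GLI proteins in the cytoplasm, had 26.3, 16.2 and 15.02 CPM in the controls and 14.1, 14.1 and 15.5 CPM after epinephrine, a change of -0.40 on the log2 scale (SE 0.21, FDR 0.370), and -0.10 without control 1. Evc2, a ciliary partner of Smo, had a change of -0.54 on the log2 scale (SE 0.30, FDR 0.412) at 12 to 30 counts, and -0.29 without chronic epinephrine 1. Kif7, a ciliary kinesin that regulates GLI proteins, did not pass the filter with all libraries, at 4 to 16 counts. In the fits that kept it, its change lay between -0.18 and -1.26 on the log2 scale, with FDR values of 0.497 to 0.938. Per length, Sufu lay at 3.76 to 7.56 FPKM, above all members but Ptch1, and Kif7 at 0.05 to 0.21 FPKM.

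**Figure D5:**
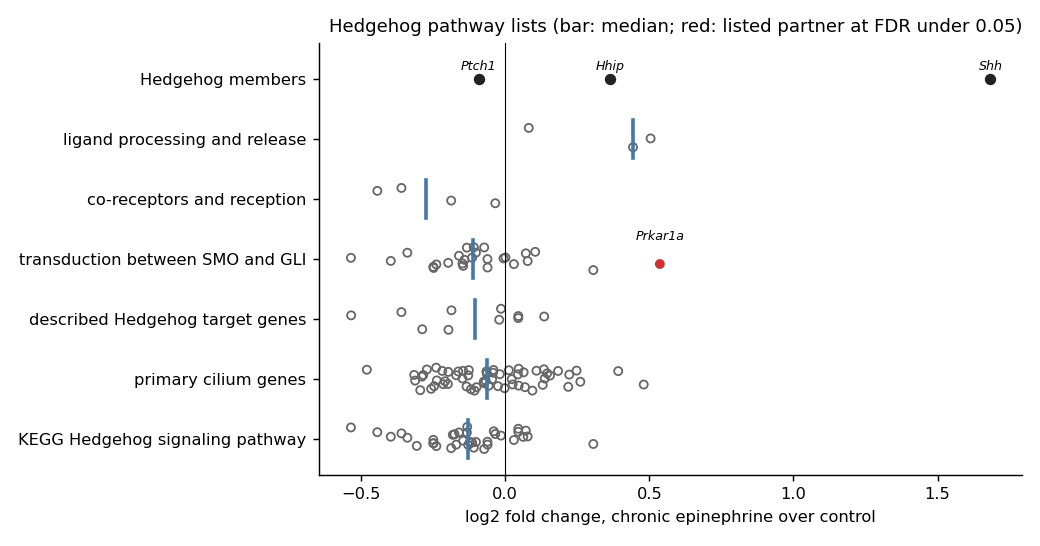
Log2 fold change of chronic epinephrine over control (horizontal axis) for each tested gene of the pathway lists, with list medians as blue bars, partners that passed an FDR of 0.05 filled in red, and the 3 members kept by the filter in black. Prkar1a at 0.54 is the red point, and no listed partner reaches the 1.68 of Shh.

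Genes described as Hedgehog targets in other tissues were listed as 22, of which 10 were tested. Foxl1, Nkx2-1, Olig2 and Pax9, 4 of the other 12, had 0 counts in all libraries. None of the tested genes passed an FDR of 0.05 with edgeR or DESeq2, 1 had an unadjusted p under 0.05 in edgeR, 3 were higher and 7 lower, and the median log2 fold change was -0.10. Without control 1 the sign of the median turned, with 6 higher, 4 lower and a median of 0.05. It was -0.22 without control 2, with 1 higher and 9 lower, and without control 3 all 10 were lower. Nkx6-1, a transcription factor of beta cells that is also among the beta cell markers above, had 411, 253 and 243 CPM in the controls and 198, 213 and 216 CPM after epinephrine, a change of -0.53 on the log2 scale (SE 0.19, FDR 0.197). Without control 1 that was -0.25 with an FDR of 0.000781 (over all alternatives 0.000781 to 0.515), the 1 call among the 10 genes, or 10%, where 21.6% of all genes passed.

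The primary cilium, in which Smo acts, was represented by 60 genes for intraflagellar transport, the transition zone and the Bardet-Biedl complex, and all 60 were tested. None passed an FDR of 0.05 in edgeR, 9 had an unadjusted p under 0.05, as had 2179 of all 12747 genes, and DESeq2 called 3, or 5% where it called 5.07% of all genes, namely Dync2h1, Ift20 and Ift57. The median log2 fold change was -0.065, with 22 higher and 38 lower. Without control 1, 11 passed, or 18.3%, under the 21.6% of all genes in that fit. Dync2h1, the motor of retrograde transport in the cilium, had 123, 117 and 97.1 CPM in the controls and 79.9, 83.8 and 77.6 CPM after epinephrine, a change of -0.48 on the log2 scale (SE 0.10, FDR 0.0539). It passed with DESeq2 (adjusted p 0.00288), without control 1 (FDR 2.85e-05), without control 3 (FDR 0.03497) and with no filter (FDR 0.04999), over a range of 2.85e-05 to 0.280 in the alternatives. Ift20, a transport protein that also sits at the Golgi, had 24.3, 34.004 and 32.6 CPM in the controls and 41.0, 42.2 and 43.7 CPM after epinephrine, a change of 0.48 on the log2 scale (SE 0.13, FDR 0.101), and it passed with DESeq2 (adjusted p 0.0355) and without control 1 (FDR 0.000721), over a range of 0.000721 to 0.360. The groups did not overlap for 4 higher and 13 lower of the 60 genes, where the shares over all genes were 14.3% and 13.0%.

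The deposited annotation assigns the KEGG pathway of Hedgehog signaling to 52 genes besides the members, among them a family of Spop paralogs, and 36 of them were tested. Most of these 36, such as Sufu, Prkacb, Btrc, Cdon and Kif3a, are also in the lists above, so the counts below are not separate from those. None passed an FDR of 0.05 in edgeR, 5 had an unadjusted p under 0.05, and DESeq2 called Prkacb, 1 of 41 genes or 2.44%, against 5.07% of all genes. The median log2 fold change was -0.13, and 29 of the 36 genes were lower after epinephrine, where 50.5% of all genes tested were. Without control 1, 37 genes of the list were tested, with a median of -0.072, 12 higher and 25 lower. Btrc, Csnk1g3, Gpr161, Grk3 and Prkacb passed there, 5 of 37 or 13.5%, below the 21.6% of all genes.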

How the data were processed

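Total RNA of 3 control and 3 chronic epinephrine samples was sequenced by Illumina. The authors deposited an expected count, not normalized between samples, and an FPKM value for each gene and sample. GRCm38 is the build in the submitters' processing notes, and the aligner, counting tool and annotation are not given in the sources used here. Of the expected counts, 8.34% were not whole, and all were rounded. filterByExpr with default settings left 12747 genes. Chronic epinephrine was compared with control in edgeR 4.0.16 (R 4.3.3), using TMM factors, quasi-likelihood F tests and the Benjamini-Hochberg FDR over these genes. The SE is the log2 fold change divided by the square root of F. DESeq2 1.42.0 was an alternative, because the methods name both tools. Positions and 50-base windows came from GENCODE mouse release 21. The fit was tested on simulated data. DESeq2 size factors, library sizes alone, no filter, a replicate block and leaving out each sample were further alternatives. The members and lists were chosen with earlier results of these data known. The genes named were the 9 members, 8 fixed partners (1 not reported here), and in each list up to 5 genes that passed and the 2 of largest change that did not, plus the 3 genes most like the member of highest FPKM.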

Additional observations from a re-analysis of the deposited data

How the results depend on the processing

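Over all alternatives run, Shh kept its log2 fold change between 1.58 and 1.80, and with DESeq2's size factors, library size only, DESeq2, no filter and the replicate block it was 1.68, 1.66, 1.68, 1.68 and 1.68. In every one of these fits 1 member, Shh, passed the FDR, where 47 to 2798 of all genes passed. The family was chosen with this contrast in view, so nothing is read from that count. The number of members under 1 CPM in all libraries was 6 with TMM as well, and 0 of the 7 members' promoter windows held either motif on either strand. Of 179 alternative values, 156 moved by less than the replicate spread or 1.5 times a count. For the FPKM levels this spread was the SD over all 6 libraries, which also contains the difference between the groups. With DESeq2, 2 genes between Smo and GLI passed in place of 1, 3 ciliary genes and 1 KEGG gene in place of 0, and 729 genes in all in place of 335. The KEGG gene, Prkacb, is also 1 of the 2 between Smo and GLI. With no filter 1 ciliary gene passed. With the replicate block 0 genes between Smo and GLI and 178 genes in all passed, and the block changed no other call of a list. The labels do not say whether shared replicate numbers pair the samples. Deviations from the group means correlated across genes at 0.0502, 0.0677 and -0.0488 between same-numbered samples. With 3 samples per group and control 1 apart from the others, these values cannot decide whether same-numbered samples were handled together. With a library left out, the counts ranged from 0 to 1 for ligand processing, from 0 to 4 between Smo and GLI, from 0 to 1 for targets, from 0 to 11 for ciliary genes, from 0 to 5 for KEGG genes and from 47 to 2798 for all genes, and the highest of each was without control 1. The cause of these differences was not tested. Depth limits Smo, Ihh, Dhh and the GLI factors, for which a change between the groups was not detectable.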
